A study of Mus musculus with 4 samples.

Results

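Transcripts of 10 genes of the nitric oxide and cyclic GMP pathway were followed across the cells of mouse popliteal vessels by single-cell RNA sequencing. The set was fixed by name and held 10 of the 32286 features of the count tables: the nitric oxide synthases Nos3 and Nos1, the soluble guanylate cyclase subunits Gucy1a1 and Gucy1b1, the cyclic GMP-dependent kinase Prkg1, the phosphodiesterases Pde5a, Pde3a and Pde1a, and the natriuretic peptide receptors Npr1 and Npr3. All 10 were found in each table. Every library came from adult mice that carry a GFP-Cre fusion at the Wt1 locus (WT1GFPCre) together with the Cre-dependent tdTomato reporter Ai9. Evans blue was injected into the footpads before the vessels were dissected. Popliteal lymphatic vessels (PLV) alone went into 2 of the 3 libraries, after digestion for 30 min with collagenase I, Dispase II, DNase and Liberase. The mixed library held popliteal lymphatic and blood vessels (BV) digested for 60 min with collagenase I and Dispase II. Each library was 1 pool of 2 mice, so a library and not a mouse is the unit of replication. Hashtag antibodies marked the vessels of the mixed library, but they were not used here, and that library is treated as 1 sample of both vessels. Vessel, digestion, mice and run differed together between the mixed library and the other libraries.

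Nitric oxide made by a synthase in one cell diffuses to its neighbours, where it activates soluble guanylate cyclase, a dimer of an alpha and a beta subunit that makes cyclic GMP. In vascular and lymphatic muscle, cyclic GMP activates the kinase encoded by Prkg1, which lowers calcium and relaxes the cell, and phosphodiesterases end the signal by hydrolysing the nucleotide. Natriuretic peptides raise cyclic GMP by a separate route, through the receptor cyclase encoded by Npr1, while the receptor encoded by Npr3 lacks a cyclase domain and clears the peptides.

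The cyclase subunit genes lie side by side in the mouse genome (build GRCm38, GENCODE M21). Gucy1a1 lies at chr3:82092427-82145789 and Gucy1b1 at chr3:82032006-82074689, both on the minus strand, with 17737 bases and 0 annotated genes between them. The other members lie at chr5:24364810-24384474 (Nos3, plus strand), chr5:117781032-117958840 (Nos1, plus), chr19:30564489-31765033 (Prkg1, minus), chr3:122728947-122859374 (Pde5a, plus), chr6:141249269-141507448 (Pde3a, plus), chr2:79834453-80129458 (Pde1a, minus), chr3:90450591-90465866 (Npr1, minus) and chr15:11839896-11907287 (Npr3, minus). No member overlapped another annotated gene on its own strand. Opposite-strand genes overlapped 7 members, among them Gm15587 and Atg9b at Nos3 and Cstf2t at Prkg1, and whether the counting used strand is not given in the sources used here. The promoters of the cyclase subunits are shown because their transcripts varied together across cell classes, and that of Npr3 because its transcripts separated kinds of muscle. They are RefSeq sequences of build GRCm38.p6, 250 bases upstream of the annotated start nearest to the gene's 5′ end, read 5′ to 3′ on the minus strand, at chr3:82145651-82145900 for Gucy1a1, chr3:82074712-82074961 for Gucy1b1 and chr15:11907372-11907621 for Npr3. Capitals mark GGGCGG, and CCAAT where it reads ATTGG on this strand.
Gucy1a1: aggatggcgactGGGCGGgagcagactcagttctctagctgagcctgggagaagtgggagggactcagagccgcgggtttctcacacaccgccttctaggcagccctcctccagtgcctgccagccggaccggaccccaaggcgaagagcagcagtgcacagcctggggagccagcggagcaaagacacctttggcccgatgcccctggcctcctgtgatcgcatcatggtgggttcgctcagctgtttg
Gucy1b1: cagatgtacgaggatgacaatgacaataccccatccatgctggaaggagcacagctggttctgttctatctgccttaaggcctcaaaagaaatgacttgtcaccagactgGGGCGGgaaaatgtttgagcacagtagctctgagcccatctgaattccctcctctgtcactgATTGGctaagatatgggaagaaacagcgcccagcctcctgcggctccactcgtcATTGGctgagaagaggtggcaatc
Npr3: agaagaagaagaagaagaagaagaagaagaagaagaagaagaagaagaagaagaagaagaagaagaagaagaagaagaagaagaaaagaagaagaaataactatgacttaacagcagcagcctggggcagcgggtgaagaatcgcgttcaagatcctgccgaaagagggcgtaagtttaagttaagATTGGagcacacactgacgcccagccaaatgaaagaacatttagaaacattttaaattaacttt
The Gucy1a1 window held 1 GGGCGG and 0 CCAAT, the Gucy1b1 window held 1 GGGCGG and 2 CCAAT, and the Npr3 window held 0 GGGCGG and 1 CCAAT. Searched on both strands, GGGCGG was present in 32.7% and CCAAT in 33.9% of the 32851 RefSeq promoters of this length. The CArG box, the serum response factor motif of many muscle genes, was present in 1.47% of these promoters and in none of the 13 windows matched to 8 members.

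After filtering, PLV library 1 held 1909 cells, PLV library 2 held 516 and the mixed library 994, with median depths of 3372, 4887 and 6162 unique molecular identifiers (UMIs, counted molecules) per cell. No cell barcode was shared between libraries. Clusters were named by markers without using any member, and UMIs were summed per library and class. The muscle-like class held 421, 110 and 317 cells in PLV library 1, PLV library 2 and the mixed library, the order in which values of the 3 libraries are given throughout. Pericyte-like cells numbered 39, 28 and 57, blood endothelial-like cells 296, 65 and 174, and lymphatic endothelial-like cells 192, 67 and 53. Levels are counts scaled to a common class total (CPM) with exact 95% Poisson intervals, which cover counting error only. The defining markers of each class were detected in it in each library, except that 2 of 8 lymphatic markers were at 0 in the lymphatic endothelial-like cells of the mixed library.

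The pathway was split across the vessel wall. Endothelial-like cells carried the transcripts of Nos3 and Npr1, while muscle-like and pericyte-like cells carried those of both cyclase subunits, Prkg1 and the 3 phosphodiesterases. In edgeR's quasi-likelihood test of mural (muscle-like and pericyte-like) against endothelial sums, 9 of the 10 members passed the filter on low counts and 8 were called at an adjusted p under 0.05, with 6 higher and 2 lower in mural cells. Over all 10491 genes tested, 39.4% were called, 19.2% as higher and 20.2% as lower. The median log2 difference was 2.95 over the 9 members and -0.01 over all genes. Members that passed the filter through the class where they are high were bound to differ, so these counts describe the set and support nothing further. Nos1 did not pass the filter, and Npr3 was not called in this comparison (log2 difference 0.87, SE 0.56, adjusted p = 0.239), though it was without PLV library 1 (1.94, adjusted p = 0.0445) and, with all libraries, when low counts were kept (0.86, adjusted p = 0.0463), which made 9 of 10.

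**Figure D1:**
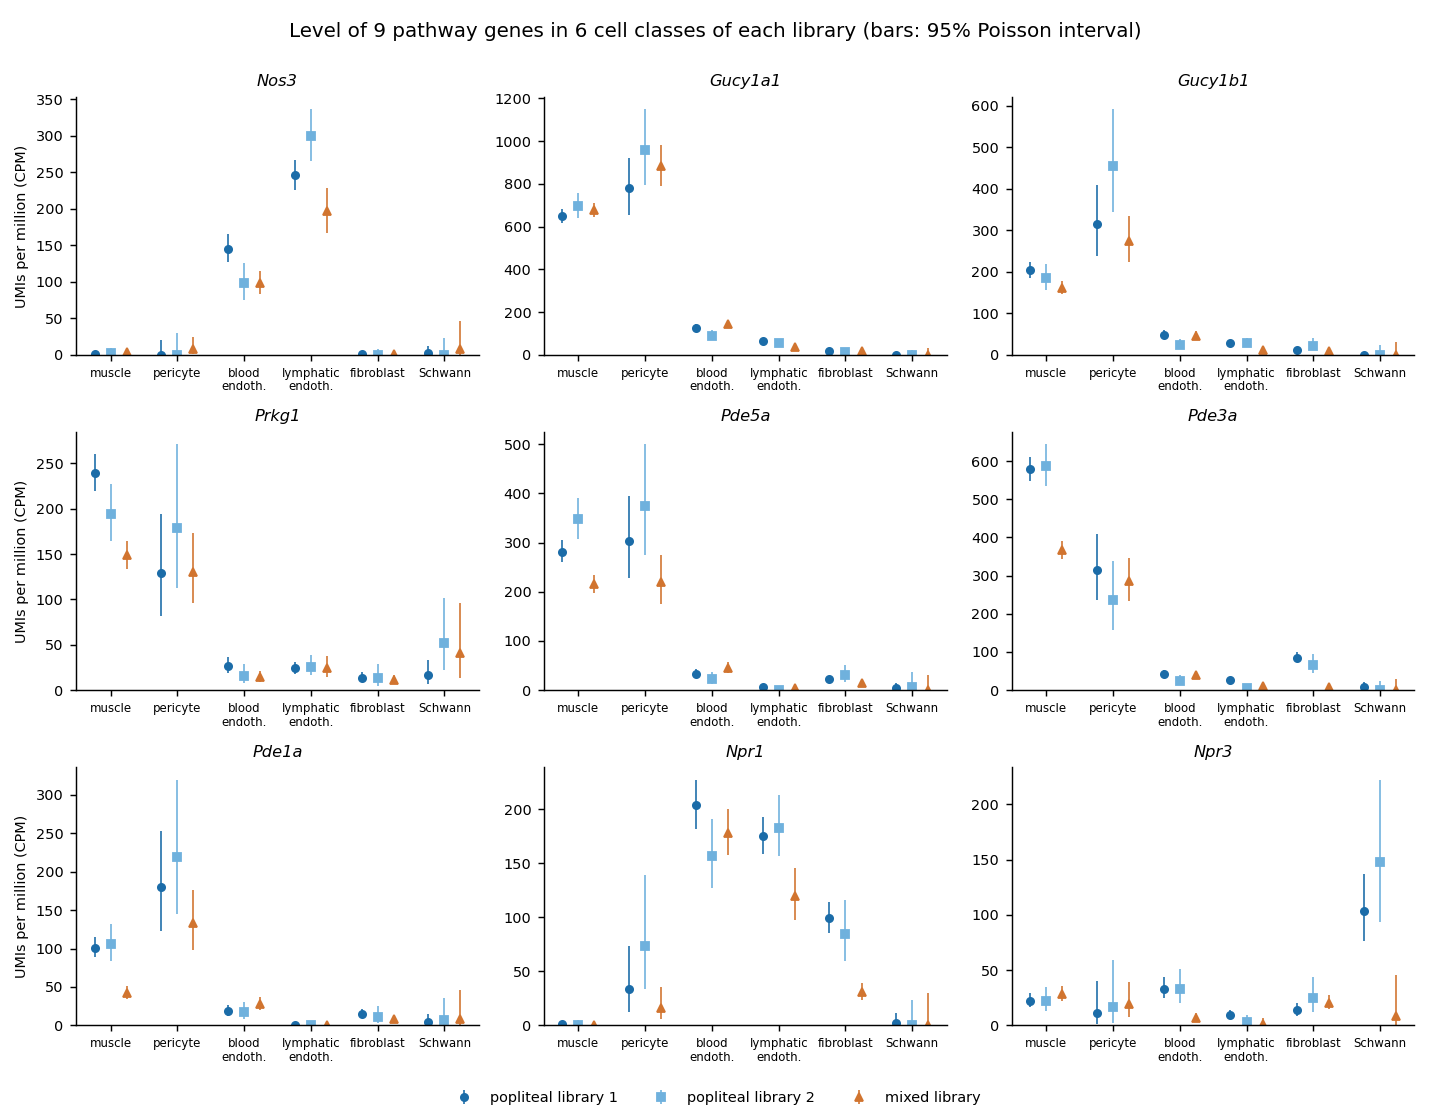
Level in CPM (vertical axes, linear) of the 9 tested genes in 6 cell classes (horizontal axes), with 1 point per library and bars for the 95% Poisson interval. Nos3 and Npr1 are highest in endothelial-like classes in each library, and Gucy1a1, Gucy1b1, Prkg1, Pde5a, Pde3a and Pde1a in the muscle-like or pericyte-like class.

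Nos3, the endothelial nitric oxide synthase, stood at 246 (226 to 268), 299 (265 to 337) and 197 (168 to 229) CPM in lymphatic endothelial-like cells. Blood endothelial-like cells had 145 (127 to 165), 97.99 (75.1 to 126) and 98.4 (83.5 to 115) CPM. Lymphatic endothelial levels were above blood endothelial levels in each library, with no overlap of the counting intervals. The log2 difference of blood against lymphatic endothelial-like cells was -1.09 (SE 0.24, adjusted p = 0.0018). Without PLV library 2 it was -0.88 with an adjusted p of 0.108, and with DESeq2 the adjusted p was 0.203. At least 1 Nos3 UMI was found in 63.0%, 80.6% and 58.5% of lymphatic endothelial-like cells (median depths 3498, 7134 and 4959 UMIs), against 0.713%, 1.82% and 2.52% of muscle-like cells (4712, 6721 and 7497). Thinned to 1500 UMIs per cell, the lymphatic endothelial shares were 30.4%, 28.6% and 22.9%, after 44, 4 and 5 shallower cells were left out, and the muscle-like shares were 0%, 0.98% and 0.326%, with 9, 8 and 10 left out. Muscle-like cells held 3, 2 and 9 Nos3 UMIs in all. Pooled over libraries, the level in lymphatic endothelial-like cells was 96.7 times the muscle-like level (57.3 to 177), and that in blood endothelial-like cells 45.8 times (27.0 to 84.4). Pericyte-like cells held 0, 0 and 3 UMIs, a pooled ratio of 55.3 (18.9 to 269) for lymphatic endothelial-like against pericyte-like cells. The log2 difference of mural against endothelial sums was -5.60 (SE 0.31, adjusted p = 4.3e-11).

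Nos1, the neuronal synthase, gave 0 UMIs in muscle-like and pericyte-like cells of each library. For muscle-like cells a count of 0 allows up to 1.36, 3.83 and 1.22 CPM. Blood endothelial-like cells held 2, 0 and 1 UMIs and lymphatic endothelial-like cells 0, 1 and 0. Schwann-like cells, the nerve sheath cells of these libraries, held 8, 1 and 0 Nos1 UMIs. Nos1 did not pass the filter on low counts, and in the fits made with low counts kept it was not called between classes. The inducible synthase gene Nos2, one of 41 other pathway genes found in the tables, stood at 16.8, 22.1 and 10.2 CPM in blood endothelial-like cells, with 0 UMIs in muscle-like and pericyte-like cells and 1, 0 and 0 in lymphatic endothelial-like cells.

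Gucy1a1, the alpha subunit of soluble guanylate cyclase, stood at 650.2 (617 to 685), 697 (640 to 758) and 679 (647 to 713) CPM in muscle-like cells. Pericyte-like cells had 780.0 (656 to 921), 960.2 (795 to 1149.9) and 882 (788 to 983) CPM. Blood endothelial-like cells had 126, 90.1 and 143 CPM, and lymphatic endothelial-like cells 63.0, 57.1 and 37.4. Mural levels were thus far above endothelial levels in each library, with no overlap. The log2 difference of mural against endothelial sums was 3.20 (SE 0.16, adjusted p = 4.55e-11). Gucy1a1 UMIs were found in 88.8%, 88.2% and 89.6% of muscle-like cells, or in 58.7%, 63.7% and 54.7% when thinned to 1500 UMIs. Schwann-like cells (median depths 1763, 3024 and 2599 UMIs) held 0 Gucy1a1 UMIs in each library, which allows up to 6.34, 19.3 and 24.6 CPM. Near-empty droplets (under 50 UMIs) in the mixed library, whose RNA was free in solution, carried Gucy1a1 at 105 CPM.

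Gucy1b1, the beta subunit without which the enzyme is inactive, was likewise highest in pericyte-like and then in muscle-like cells. Its level was 204, 185 and 161 CPM in muscle-like cells and 314, 456 and 275 CPM in pericyte-like cells. Blood endothelial-like cells had 47.3, 23.7 and 45.1 CPM, and lymphatic endothelial-like cells 28.9, 28.0 and 12.1. Mural cells were again above endothelial cells in each library (log2 difference 2.95, SE 0.20, adjusted p = 1.71e-09). Across the 18 class sums, Gucy1b1 was the gene whose log2 level ran most like that of Gucy1a1 among 9703 genes (Pearson r = 0.987), a description over sums that share libraries and depth. The ratio of Gucy1a1 to Gucy1b1 UMIs, which depends on how each transcript is captured and is therefore compared only between classes, was 3.18, 3.77 and 4.21 in muscle-like cells and 2.48, 2.11 and 3.21 in pericyte-like cells. The alternative alpha subunit gene Gucy1a2 was also higher in mural cells (log2 difference 4.34, SE 0.35, adjusted p = 1.98e-08), with 46.8, 49.8 and 75.4 CPM in muscle-like cells.

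Prkg1, the kinase on which cyclic GMP acts in muscle, stood at 239 (219 to 260), 194 (164 to 227) and 148 (134 to 164) CPM in muscle-like cells and at 129, 179 and 131 CPM in pericyte-like cells. In blood endothelial-like cells it was 26.6, 15.8 and 14.0 CPM, and in lymphatic endothelial-like cells 24.1, 25.9 and 24.1. The mural and endothelial ranges did not overlap (log2 difference 2.89, SE 0.19, adjusted p = 4.82e-10). Mrvi1, which encodes the kinase's substrate at the calcium store, was higher in mural cells by 4.07 on the log2 scale (SE 0.28, adjusted p = 6.44e-10). Hspb6, a small heat shock protein phosphorylated during relaxation, was higher by 3.11 (SE 0.39, adjusted p = 1.86e-06).

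Pde5a, which encodes the cyclic GMP-specific phosphodiesterase that sildenafil inhibits, stood at 282 (260.0 to 305), 347 (307 to 391) and 216 (198 to 235) CPM in muscle-like cells. Pericyte-like levels were 303 (228 to 395), 374 (274 to 499) and 220.5 (175 to 274) CPM, and overlapped those of muscle-like cells in each library. Blood endothelial-like cells had 33.0, 22.1 and 45.1 CPM, and lymphatic endothelial-like cells 6.56, 1.08 and 3.62, from 15, 1 and 3 UMIs. Mural sums were higher by 4.41 on the log2 scale (SE 0.23, adjusted p = 2.74e-11). Pde3a, which hydrolyses cyclic AMP and is inhibited by cyclic GMP, stood at 578 (547 to 611), 587 (535 to 643) and 366 (343 to 391) CPM in muscle-like cells. It was lower in pericyte-like cells of each library, at 314 (237 to 408), 236 (158 to 339) and 286 (234 to 346) CPM, and the intervals met in the mixed library. Endothelial-like cells had 42.1, 23.7 and 40.0 CPM of Pde3a on the blood side and 26.2, 6.46 and 10.9 on the lymphatic side, and the mural difference was 3.98 (SE 0.32, adjusted p = 4.14e-09).

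Pde1a, a calcium- and calmodulin-activated phosphodiesterase, was highest in pericyte-like cells, at 179.6 (123 to 253), 219.7 (145 to 319.7) and 133 (98.7 to 176) CPM. Muscle-like cells had 101 (88.5 to 116), 106 (84.4 to 131) and 42.2 (34.5 to 51.1) CPM. Pericyte-like levels exceeded muscle-like levels in each library, without overlap of the intervals. Lymphatic endothelial-like cells held 1, 0 and 0 Pde1a UMIs, and blood endothelial-like cells 28, 11 and 43. Mural sums were higher than endothelial sums by 5.31 on the log2 scale (SE 0.32, adjusted p = 9.32e-11). Among other phosphodiesterases of the list, Pde9a, whose product is specific for cyclic GMP, was lower in mural than in endothelial cells, with 27.2, 31.6 and 14.0 CPM in blood endothelial-like cells and 0 UMIs in muscle-like cells of each library.

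Npr1, the receptor cyclase for atrial natriuretic peptide, stood at 203 (182 to 227), 157 (127 to 190.5) and 178 (158 to 200) CPM in blood endothelial-like cells and at 175 (158 to 193), 183 (157 to 213) and 119 (97.1 to 145) in lymphatic endothelial-like cells. Muscle-like cells held 3, 0 and 2 UMIs. Endothelial and muscle-like levels were thus separate in each library, and mural sums were lower by 4.86 on the log2 scale (SE 0.27, adjusted p = 5.03e-11). Fibroblast-like cells had 99.0, 84.2 and 30.8 CPM. Npr2, the receptor cyclase for C-type natriuretic peptide, was likewise lower in mural cells, with 47.3, 60.1 and 32.4 CPM in blood endothelial-like cells and 66.1, 59.2 and 41.0 in lymphatic endothelial-like cells against 1, 0 and 1 UMIs in muscle-like cells and 0 in pericyte-like cells. The peptide genes Nppa, Nppb and Nppc gave at most 2 UMIs in any of the muscle-like, pericyte-like, endothelial-like and fibroblast-like sums.

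Npr3, the clearance receptor, stood at 22.3, 21.7 and 28.4 CPM in muscle-like cells, 11.2, 16.3 and 19.1 in pericyte-like cells, 33.1, 33.2 and 6.35 in blood endothelial-like cells and 9.19, 3.23 and 1.21 in lymphatic endothelial-like cells. Schwann-like cells had the highest level in both PLV libraries, 104 (76.6 to 137) and 148 (93.9 to 222) CPM, against 8.21 CPM from 1 UMI in the mixed library. The muscle-like average hid a contrast between kinds of muscle that is described with them.

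**Figure D2:**
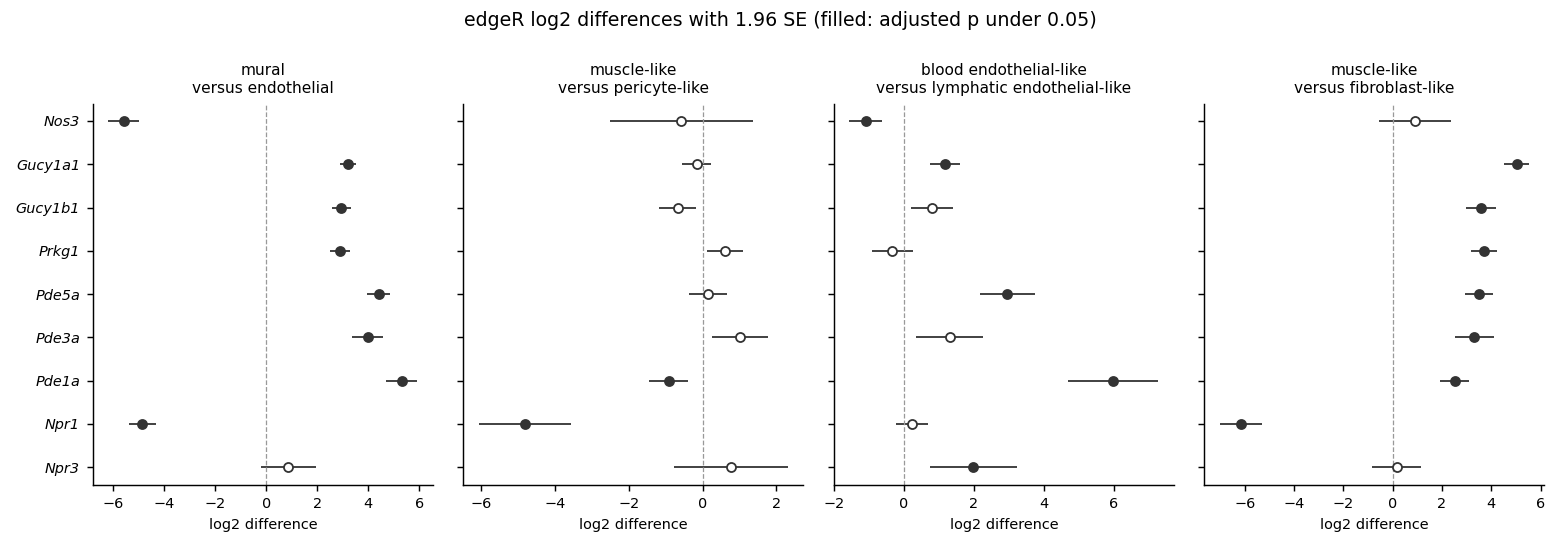
Log2 differences (horizontal axes) of the 9 tested genes in 4 comparisons of cell classes from edgeR, with bars for the 95% interval and filled points for an adjusted p under 0.05. In the mural against endothelial panel 6 filled points lie to the right of 0, those of Nos3 and Npr1 to the left, and the open point is Npr3.

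Of the other pathway genes tested, 18 of 28 were called between mural and endothelial cells, 7 as higher and 11 as lower in mural cells, beside 39.4% of all genes (19.2% higher and 20.2% lower). Without PLV library 1 the lower genes numbered 7, and in endothelial cells free of pericyte markers, set against mural cells free of endothelial markers, 7 of 29 were called as higher and 9 as lower. Where endothelial cells also lacked muscle markers, 6 of 19 were called as higher and 3 as lower, and 6 of the genes called as lower over all cells (Nostrin, Nos1ap, Gch1, Ass1, Pde9a and Abcc4) did not pass the filter. With DESeq2 9 were called as higher and 10 as lower, and with clusters of resolution 2, 10 and 11. Among the genes called, Gucy1a2, Mrvi1 and Hspb6 had the largest rises and Npr2, Ddah1 and Pde9a the largest falls. For Kcnma1 and Kcnmb1, with 0 UMIs in pericyte-like cells of each library, the edgeR contrast of averaged classes gave no usable standard error, so that these genes have no readable test in it. Kcnma1 was called as higher by DESeq2 (4.54, adjusted p = 3.44e-05), and at resolution 2 both Kcnma1 (5.30, adjusted p = 0.00292) and Kcnmb1 (4.42, adjusted p = 0.000138) were. Ddah1 encodes an enzyme that degrades asymmetric dimethylarginine, an endogenous inhibitor of nitric oxide synthases. It stood at 96.3, 60.3 and 136 CPM in lymphatic endothelial-like cells, with 0 UMIs in pericyte-like and 2, 1 and 4 in muscle-like cells. The median log2 difference of the 28 genes was 0.00, beside -0.01 over all genes.

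Blood and lymphatic endothelial-like cells differed in 5 of the 9 tested members, 4 as higher and 1 as lower on the blood side, against 21.1% of all genes (11.5% higher and 9.65% lower). Nos3 was lower in blood endothelial-like cells, as given above. Gucy1a1 was higher by 1.18 on the log2 scale (SE 0.22, adjusted p = 0.000567), and Pde5a by 2.96 (SE 0.40, adjusted p = 1.15e-05). Pde1a had 82 UMIs in all in blood and 1 in lymphatic endothelial-like cells, a pooled ratio of 88.4 (15.4 to 3532) and an adjusted p of 1.03e-06. Npr3 was higher by 1.98 (SE 0.63, adjusted p = 0.0298), a call lost without PLV library 1 (adjusted p = 0.069) or PLV library 2 (adjusted p = 0.309). Gucy1b1 (log2 difference 0.80, adjusted p = 0.0699), Pde3a (1.31, 0.0631), Npr1 (0.24, 0.583) and Prkg1 (-0.33, 0.557) did not pass the threshold. Without a filter on low counts Pde3a (1.31, adjusted p = 0.000161) and Gucy1b1 (0.81, adjusted p = 0.0277) were called, which made 7 of 10, and Gucy1b1 was also called without PLV library 2 (1.09, adjusted p = 0.048). The median over the 9 members was 1.18, and over all genes 0.01.

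Pericyte markers moved with these differences. The summed level of 10 pericyte markers (among them Rgs5, Kcnj8, Abcc9 and Pdgfrb) in blood endothelial-like cells was 15.3%, 8.45% and 18.4% of that in pericyte-like cells, with 0 of 10 markers at 0. Gucy1a1 in blood endothelial-like cells was 16.1%, 9.38% and 16.3% of its level in pericyte-like cells. In lymphatic endothelial-like cells the pericyte markers stood at 0.623%, 0.105% and 0.117% of the pericyte level, with 3, 6 and 7 of 10 at 0, and Gucy1a1 at 8.08%, 5.94% and 4.24%. The summed level of 9 muscle markers was 1351, 820.3 and 1046 CPM in blood and 1192, 243 and 145 CPM in lymphatic endothelial-like cells. That of 8 fibroblast markers was 416, 269 and 563 CPM in blood and 101, 38.8 and 51.9 CPM in lymphatic endothelial-like cells, and its part in the differences was not tested.

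Blood endothelial-like cells with 0 UMIs of the 10 pericyte markers, a selection made after the data were seen, numbered 165 of 296, 41 of 65 and 128 of 174. In them Gucy1a1 stood at 14.6 (6.30 to 28.7), 9.23 (1.90 to 27.0) and 54.0 (39.1 to 72.7) CPM, and in lymphatic endothelial-like cells selected in the same way at 49.4 (38.9 to 61.8), 55.0 (37.9 to 77.3) and 43.3 (28.0 to 63.9) CPM. The order of the classes was thus turned in both PLV libraries, and the intervals overlapped in the mixed library. Gucy1b1 stood at 1.82, 3.08 and 11.3 CPM in the selected blood and at 25.3, 28.4 and 13.8 in the selected lymphatic endothelial-like cells. Pde5a had 2, 0 and 0 UMIs and Pde1a 1, 0 and 0 UMIs in the selected blood endothelial-like cells. Refitted with such cells, 15.8% of all genes and 1 of 9 members were called, a share of members near the background: Gucy1b1, now lower in blood endothelial-like cells (log2 difference -1.74, adjusted p = 0.023). Gucy1a1 (-0.78, adjusted p = 0.231), Pde5a (-0.74, 0.793), Pde1a (2.36, 0.411), Npr3 (1.81, 0.19) and Nos3 (-0.76, 0.0641) no longer passed. With cells that also lacked UMIs of the 9 muscle markers, 1 of 9 members was called, Gucy1a1 (-1.80, adjusted p = 0.0385), beside 11.2% of all genes. That fit rests on 3, 0 and 6 Gucy1a1 UMIs in 88, 11 and 54 blood endothelial-like cells. The 77, 16 and 22 lymphatic endothelial-like cells held 15, 8 and 5. Levels were 12.8, 0 and 41.3 CPM against 81.1, 112 and 51.6 CPM, with intervals apart only in PLV library 1. The blood endothelial-like cells selected by pericyte markers alone held 548631 of 1543078, 324966 of 632725 and 796523 of 1575515 UMIs of their class. The part of their lower depth in these values was not tested. The mural against endothelial count was 8 of 9 in both refits, beside 28.1% of all genes without pericyte markers and 29.8% without both marker lists.

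**Figure D3:**
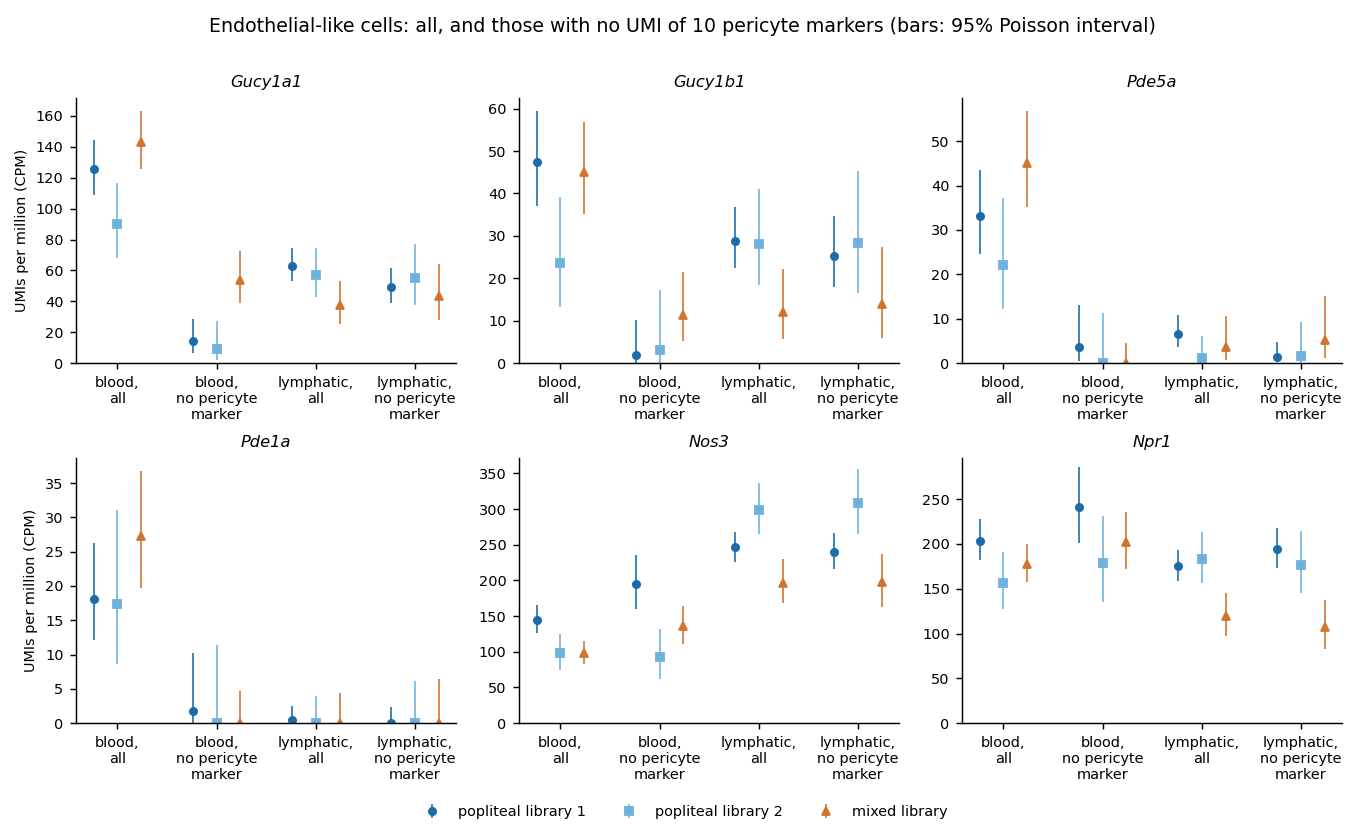
Level in CPM (vertical axes, linear) of 6 genes in blood and lymphatic endothelial-like cells (horizontal axes), for all cells and for those with 0 UMIs of 10 pericyte markers, with 95% Poisson intervals and 1 point per library. Gucy1a1 in blood endothelial-like cells goes from 126, 90.1 and 143 to 14.6, 9.23 and 54.0, while Nos3 and Npr1 remain above 90 in each group of cells.

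Single endothelial clusters were compared in the same way. In PLV library 1, Gucy1a1 stood at 124 CPM in the capillary-led, 77.0 in the venular-led and 195 in the arterial-led cluster. Pericyte marker sums there were 2451, 928 and 2338 CPM, and muscle marker sums 770, 1171 and 2731 CPM. The arterial-led cluster thus had more Gucy1a1 than the capillary-led one, with slightly less of the pericyte markers and more of the muscle markers. In the capillary-led cluster of PLV library 2, Gucy1a1 was 116 CPM (pericyte markers 1137, muscle markers 510). Its venular-led cluster had 6.63 CPM from 1 UMI, with 9 of 10 pericyte markers at 0 and muscle markers at 1811 CPM. The mixed library had 181 CPM in its capillary-led cluster (pericyte markers 1946, muscle markers 801). The venular-led cluster marked by Ackr1 and Selp had 56.8 CPM (pericyte markers 380, muscle markers 1829). A further cluster of 33 cells in the mixed library was led by Cytl1 and Vwf, held no venular, capillary or arterial marker among its leading genes and is called by those genes. There Gucy1a1 stood at 199 CPM and in 48.5% of cells (36.0% when thinned to 1500 UMIs), while 9 of 10 pericyte markers were at 0 and the tenth gave a sum of 4.15 CPM. Muscle markers summed to 224 CPM in this cluster. Nos3 was 178 CPM in this cluster and 220 CPM in the arterial-led cluster of PLV library 1, the highest values among blood endothelial-like clusters of their libraries. Npr1 was higher in venular-led than in capillary-led clusters of each library (293 against 171, 232 against 133, and 215 against 137 CPM), and was 236 CPM in the Cytl1 and Vwf cluster. Npr3 ran the other way, at 64.1 CPM in the arterial-led and 37.0 in the capillary-led against 4.16 in the venular-led cluster of PLV library 1. Capillary-led against venular-led, Npr3 was 43.6 against 0 in PLV library 2 and 12.1 against 0 in the mixed library. The Cytl1 and Vwf cluster had 0 as well. The venular-led cluster of PLV library 2 held only 12 cells, so that 1 UMI made 6.63 CPM, and its Npr1 value rests on the same cells. Clusters of 1 library have no replicate, and these differences were not tested.

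**Figure D4:**
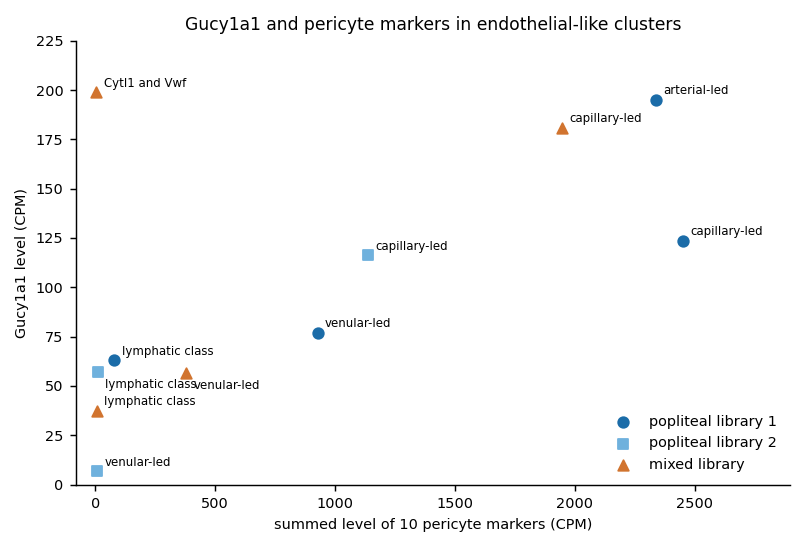
Gucy1a1 level (vertical axis, CPM) against the summed level of 10 pericyte markers (horizontal axis, CPM) in blood endothelial-like clusters and in the lymphatic endothelial-like class, with 1 symbol per library. The cluster led by Cytl1 and Vwf at the upper left, from the mixed library, has 199 CPM of Gucy1a1 with a pericyte marker sum of 4.15.

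Other pathway genes differed between blood and lymphatic endothelial-like cells in 14 of 28 tests, 12 as higher and 2 as lower in blood endothelial-like cells (median log2 difference 0.34), beside 21.1% of all genes (11.5% higher and 9.65% lower). The count was 9 without PLV library 1. It was 8 of 29, 6 as higher, in cells with 0 UMIs of the pericyte markers (15.8% of all genes), and 2 of 19 in cells that also lacked UMIs of the muscle markers (11.2% of all genes), a share near the background. Abcc4, an exporter of cyclic nucleotides, was higher by 5.00 (SE 0.51, adjusted p = 4.11e-07), Gucy1a2 by 2.72 (SE 0.70, adjusted p = 0.00781) and Nostrin, which binds the endothelial synthase and traffics it, by 2.56 (SE 0.61, adjusted p = 0.00475). Without pericyte marker UMIs Gucy1a2 had a log2 difference of -0.22 (adjusted p = 1). Ddah1 was lower in blood endothelial-like cells (-3.17, SE 0.28, adjusted p = 2e-07), as was Slc7a1, an arginine transporter (-1.78, SE 0.27, adjusted p = 4.07e-05). In cells that lacked UMIs of both marker lists, Ddah1 was no longer called (-2.30, adjusted p = 0.075), and Nostrin and Abcc4 did not pass the filter. Slc7a1 stood at 81.8, 109 and 61.6 CPM in lymphatic endothelial-like cells and at 25.3, 25.3 and 20.9 in blood endothelial-like cells.

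Muscle-like and pericyte-like cells differed in 2 of 9 members, both as lower in muscle-like cells, against 12.2% of all genes (7.03% higher and 5.17% lower), a count too small to be read as a result about the set. Pde1a was lower in muscle-like cells (log2 difference -0.92, SE 0.27, adjusted p = 0.0322), a call lost without any 1 of the libraries (adjusted p from 0.0737 to 0.191). Npr1 was lower as well (log2 difference -4.82, SE 0.64, adjusted p = 3.7e-05), from 6, 9 and 6 UMIs in pericyte-like cells and a pooled ratio of 34.2 (12.6 to 116). Endothelial markers were at 685, 317 and 411 CPM in pericyte-like and at 102, 52.3 and 99.0 CPM in muscle-like cells. The lymphatic part of the pericyte-like sums was 168, 146 and 152 CPM, with 7, 6 and 4 of 8 lymphatic markers at 0. Nos3 had 0 UMIs in pericyte-like cells of both PLV libraries and 3 in the mixed library. Whether the summed markers stand for endothelial RNA in pericyte-like cells was not tested. In mural cells with 0 endothelial marker UMIs, 0 of 9 members were called by edgeR, beside 5.02% of all genes, with 2 of 9 at an unadjusted p under 0.05. Npr1 kept a log2 difference of -5.04 there but was not called (adjusted p = 0.119). That fit rests on few cells: 15, 4 and 18 pericyte-like cells were left, the 4 of PLV library 2 were too few for a sum, and Npr1 had 0, 0 and 2 UMIs in them against 0, 0 and 1 in the selected muscle-like cells. Gucy1a1 (-0.15, adjusted p = 0.728), Gucy1b1 (-0.67, 0.102), Prkg1 (0.62, 0.121), Pde5a (0.15, 0.809) and Pde3a (1.02, 0.0994) did not pass, although Pde3a was called without the mixed library (1.33, adjusted p = 0.00198) and without a filter on low counts (1.08, adjusted p = 0.000169). Muscle markers in pericyte-like cells stood at 5993, 7088 and 11628 CPM, against 30885, 31165 and 37521 CPM in muscle-like cells, and their part in these values was not tested. With muscle-like clusters of only the kind marked by Ano1 and Hmcn2, Gucy1a1 (-0.65, adjusted p = 0.0395) and Gucy1b1 (-0.88, adjusted p = 0.0285) were called as lower than in pericyte-like cells. With those marked by Pln and Sorbs2 alone, Prkg1 (0.90, adjusted p = 0.013) and Pde3a (1.14, adjusted p = 0.0461) were called as higher, Npr3 as lower (-6.95, adjusted p = 0.0181, from 0 UMIs in that kind), and Pde1a was not called (-0.24, adjusted p = 0.571). For Gucy1a1 over all muscle-like cells the 95% interval of the difference ran from -0.55 to 0.24.

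Of the other pathway genes, 10 of 28 were called between the mural classes, 8 as higher and 2 as lower in muscle-like cells (median log2 difference 0.22, against 0.07 over all genes, of which 12.2% were called). In mural cells with 0 endothelial marker UMIs, 3 of the 19 that could be tested were called, all as higher (5.02% of all genes). Kcnma1 and Kcnmb1, the pore and beta subunits of the large-conductance potassium channel that the kinase opens, stood at 82.2, 91.9 and 81.1 CPM and at 130.4, 116 and 73.8 CPM in muscle-like cells. Both had 0 UMIs in pericyte-like cells of each library, which allows up to 16.8, 24.4 and 8.17 CPM, and Kcnmb1 was not called by DESeq2 (adjusted p = 0.471). Nos1ap, an adaptor of the neuronal synthase, had 13.2, 23.0 and 27.6 CPM against 0 UMIs, a call lost without the mixed library (adjusted p = 0.0591). Rgs2, a kinase substrate that restrains G protein signals, was among the genes called, at 272, 177 and 248 CPM against 33.7, 0 and 2.72. Nostrin (log2 difference -4.38, adjusted p = 0.0263) and Pde2a (-1.46, adjusted p = 0.00953) were lower in muscle-like cells, beside the higher endothelial markers of pericyte-like cells given above. The call of Nostrin was lost without any 1 of the libraries (adjusted p from 0.0515 to 0.0966), and that of Pde2a without PLV library 2 (0.106) or the mixed library (0.085). In mural cells with 0 endothelial marker UMIs Pde2a had a log2 difference of -1.43 (adjusted p = 0.379), and Nostrin did not pass the filter.

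Against fibroblast-like cells of the same libraries, 7 of 9 members were called in muscle-like cells, 6 as higher and Npr1 as lower, beside 38.9% of all genes (17.4% higher and 21.5% lower). The log2 differences were 5.03 for Gucy1a1 (SE 0.25, adjusted p = 1.36e-10), 3.69 for Prkg1 (SE 0.27, adjusted p = 2.88e-09) and 3.57 for Gucy1b1 (SE 0.30, adjusted p = 4.7e-08). Pde5a, Pde3a and Pde1a were higher by 3.50, 3.31 and 2.52. Npr1 was lower (-6.17, SE 0.44, adjusted p = 1.82e-09), whereas Npr3 (0.15, adjusted p = 0.855) and Nos3 (0.90, adjusted p = 0.378) were not called. Endothelial markers, a list that includes Ly6c1, Pdpn and Thy1, summed to 1643, 971 and 788 CPM in fibroblast-like cells. In muscle-like cells they summed to 102, 52.3 and 99.0 CPM. Nos3 in fibroblast-like cells averaged 0.54 CPM over the PLV libraries and was 1.42 CPM in the mixed library. The part of endothelial RNA in the Npr1 difference was not tested. Of the other pathway genes 18 of 28 were called, 13 as higher, with Kcnmb1, Kcnma1 and Mrvi1 (6.85, SE 0.49) first and Npr2, Nostrin and Abcc4 (-2.39, SE 0.64) lowest. Kcnmb1 was not called here by DESeq2 (adjusted p = 0.162), nor Abcc4 without PLV library 1 (adjusted p = 0.376). The medians were 3.31 over the 9 members, 0.71 over the 28 genes and -0.03 over all genes.

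Muscle-like clusters fell into kinds named by marker pairs. The Ano1 and Hmcn2 kind made up 32.3%, 51.8% and 63.1% of muscle-like cells, the Pln and Sorbs2 kind 67.7%, 48.2% and 13.6%, and a P2rx1 and Col12a1 kind 23.3% of the mixed library and no cluster of the PLV libraries. Of 7 members that passed the filter, 5 were called between the Pln and Sorbs2 kind and the Ano1 and Hmcn2 kind, 4 as higher and 1 as lower in the Pln and Sorbs2 kind, beside 32% of all 7059 genes tested (16.4% higher and 15.6% lower). The lower one was Npr3, which passed the filter through the Ano1 and Hmcn2 kind alone and was bound to differ, so that its call supports nothing. The median log2 difference was 0.54 over the 7 members and -0.00 over all genes. Nos3, Nos1 and Npr1 did not pass the filter in muscle.

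Npr3 UMIs lay mostly in the Ano1 and Hmcn2 kind, a contrast given as levels. The Ano1 and Hmcn2 kind held 49, 17 and 66 Npr3 UMIs, or 68.6 (50.8 to 90.7), 52.7 (30.7 to 84.4) and 49.7 (38.5 to 63.3) CPM, found in 24.3%, 21.1% and 22.0% of its cells (6.77%, 8.16% and 5.26% when thinned to 1500 UMIs). The Pln and Sorbs2 kind held 0 UMIs in each library, which allows up to 2.02, 6.51 and 9.61 CPM, at median depths of 4881, 8560.0 and 6565 UMIs per cell against 4462, 5909 and 6379. Every Ano1 and Hmcn2 value lay above these limits. Pooled over libraries, 132 UMIs stood against 0, at least 42.1-fold higher in the Ano1 and Hmcn2 kind by a floor of 3 UMIs over the group. In the mixed library the P2rx1 and Col12a1 kind held 4 Npr3 UMIs, or 4.84 CPM (1.32 to 12.4), below the Ano1 and Hmcn2 kind of the same library without overlap of the intervals. Fibroblast-like cells of these libraries, by comparison, had 13.5, 24.4 and 20.3 CPM.

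Gucy1a1 was lower in the Ano1 and Hmcn2 kind, at 512 (461 to 568), 496 (422 to 580) and 539 (500 to 580) CPM, than in the Pln and Sorbs2 kind, at 716 (674 to 761), 837 (756 to 925) and 900.3 (798 to 1012) CPM. The kinds did not overlap in any library, and the log2 difference was 0.81 (SE 0.15, adjusted p = 5.8e-05). The P2rx1 and Col12a1 kind stood with the second, at 822 CPM (761 to 886). Gucy1b1 was higher in the Pln and Sorbs2 kind of PLV library 1 and close to even in the others, with 153, 186 and 169 CPM against 229, 184 and 167, and 148 in the P2rx1 and Col12a1 kind (log2 difference 0.39, SE 0.17, adjusted p = 0.0865; 0.0454 without the mixed library). The ratio of Gucy1a1 to Gucy1b1 UMIs in the mixed library was 3.19 (2.74 to 3.73) in the Ano1 and Hmcn2 kind, 5.40 (4.01 to 7.41) in the Pln and Sorbs2 kind and 5.57 (4.58 to 6.81) in the P2rx1 and Col12a1 kind. In PLV library 1 the ratios of the first and second of these were 3.36 (2.70 to 4.2) and 3.12 (2.76 to 3.54), so the difference in ratio was not common to the libraries. PLV library 2 had 2.67 (1.97 to 3.65) and 4.54 (3.58 to 5.81).

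Pde1a differed by 1.74 on the log2 scale (SE 0.23, adjusted p = 6.89e-07), from 43.4, 31.0 and 35.4 CPM in the Ano1 and Hmcn2 kind to 129, 158 and 73.7 in the Pln and Sorbs2 kind. The kinds were apart in each library, and their intervals met narrowly in the mixed library (26.0 to 47.1 against 46.7 to 111). Prkg1 was 192, 133 and 137 CPM against 262, 237 and 173 (log2 difference 0.67, SE 0.16, adjusted p = 0.002; 0.0522 with DESeq2). Pde5a was 210.0, 282 and 227 CPM against 316, 393 and 234 (0.54, SE 0.16, adjusted p = 0.00815), and this call was lost without PLV library 1 (adjusted p = 0.252) and with DESeq2 (0.118). Pde3a, at 522, 509 and 347 against 605, 642 and 368 CPM, did not pass (0.37, adjusted p = 0.0533), but without the mixed library it did (0.44, adjusted p = 0.0208), as did Gucy1b1 (0.54, adjusted p = 0.0454). A single barcode of the mixed muscle-like class carried 10 or more mast cell UMIs (327), and its part in these values was not tested.

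Of 21 other pathway genes tested between these kinds 9 were called, 4 as higher and 5 as lower in the Pln and Sorbs2 kind (median -0.13), beside 32% of all genes (16.4% higher and 15.6% lower), too near that share to be read as a result about the list. Nos1ap (log2 difference -4.62, SE 0.60, adjusted p = 4.75e-07), Cav1 (-1.92, SE 0.15, adjusted p = 4.73e-11) and Ddah2 (-1.15, SE 0.24, adjusted p = 0.000301) were lowest. Nos1ap did not pass the filter where the Pln and Sorbs2 kind stood alone as muscle-like. It passed here through the Ano1 and Hmcn2 kind and was bound to differ, so that its call supports nothing. Cav1, the caveolar coat protein that holds the endothelial synthase inactive, stood at 1668, 1576 and 1152 CPM in the Ano1 and Hmcn2 kind and at 392, 377 and 269 in the Pln and Sorbs2 kind. Hspb6 (0.83, SE 0.23, adjusted p = 0.00605), the myosin phosphatase catalytic subunit gene Ppp1cb (0.81, SE 0.14, adjusted p = 4.81e-05) and the calcium store channel gene Itpr1 (0.59, SE 0.15, adjusted p = 0.00229) were highest. Without PLV library 1 the count of higher genes went from 4 to 1, and without the mixed library to 2. The call of Hspb6 was lost without PLV library 1 (adjusted p = 0.139) or the mixed library (0.0683) and with DESeq2 (0.236), and that of Itpr1 without PLV library 1 (0.0902). With DESeq2 2 genes were called as higher and 4 as lower, and with at least 1000 UMIs per barcode 2 and 8.

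**Figure D5:**
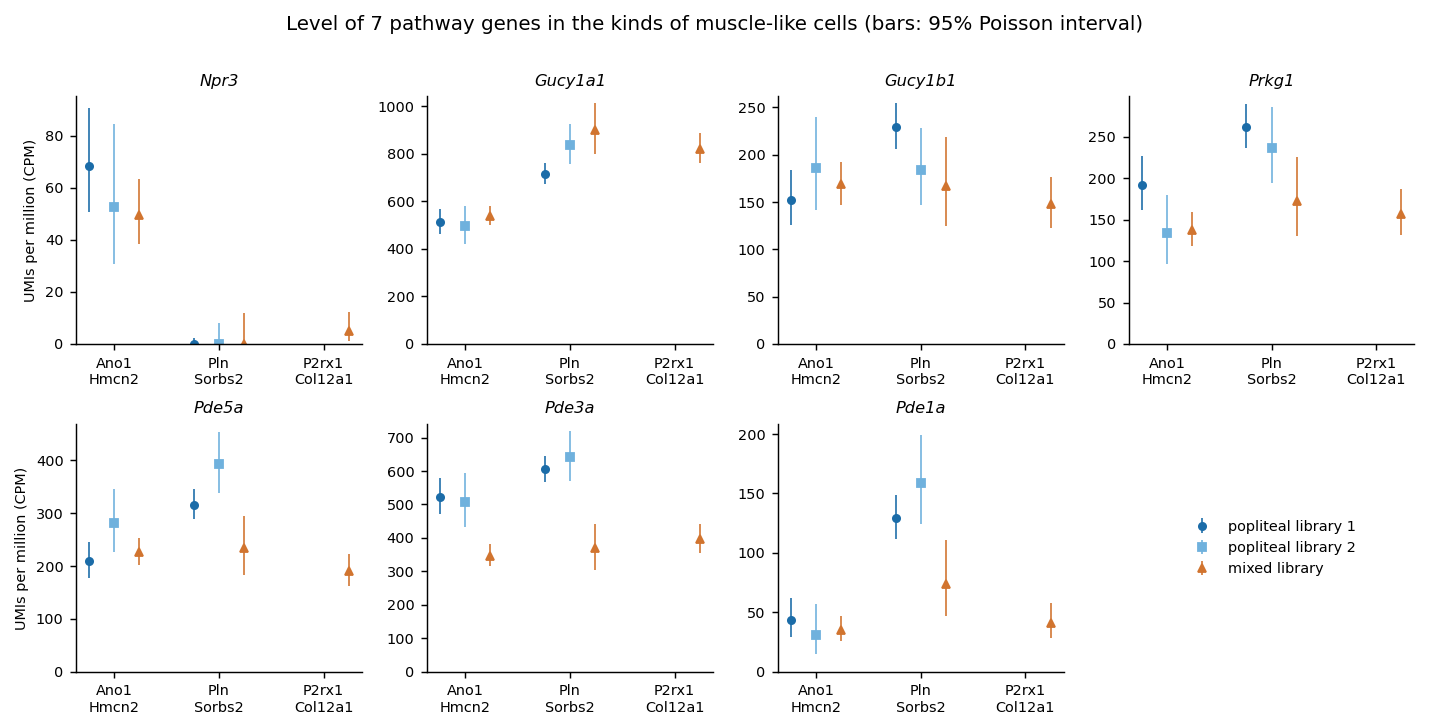
Level in CPM (vertical axes, linear) of 7 genes in the kinds of muscle-like cells (horizontal axes), with 1 point per library and 95% Poisson intervals. Npr3 is at 68.6, 52.7 and 49.7 in the Ano1 and Hmcn2 kind and at 0 in the Pln and Sorbs2 kind, while Gucy1a1 and Pde1a are higher in the Pln and Sorbs2 kind in each library.

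Muscle-like cells of the PLV libraries were also set against those of the mixed library, and 1 of 7 members was called, as higher, beside 15.8% of all 10809 genes (7.53% higher and 8.23% lower), a share near the background and no result about the set. Pde1a was higher in the PLV libraries (101 and 106 against 42.2 CPM, log2 difference 1.06, SE 0.26, adjusted p = 0.00239). Within the Ano1 and Hmcn2 kind the log2 difference of Pde1a was -0.15 and within the Pln and Sorbs2 kind 0.70. It was called in neither kind, nor over all muscle-like cells by DESeq2. In the Pln and Sorbs2 kind the counting intervals of both PLV libraries (129 and 158 CPM) lay above that of the mixed library (73.7 CPM). The shares of the kinds differ between these libraries, as given above. Fibroblast markers in muscle-like cells also differed, at 1460 and 1407 CPM in the PLV libraries and 4944 CPM in the mixed library, and their part in this comparison was not tested. Gucy1a1 was not called (-0.24, SE 0.27, 95% interval -0.76 to 0.28, adjusted p = 0.602). Pde3a showed no call (0.44, SE 0.27, adjusted p = 0.278), although its counting intervals in muscle-like cells of both PLV libraries lay above that of the mixed library. This fit assumes that the lone mixed library varies like the PLV libraries, and vessel, digestion, mice and run cannot be told apart in it. Among 24 other pathway genes Ddah2 (-1.07), Nos1ap (-0.99) and Gucy1a2 (-0.89) were lower in the PLV libraries. None of the 3 was called with DESeq2, where the log2 differences of Ddah2, Nos1ap and Gucy1a2 were -1.02, -0.88 and -0.88. Nor was any called within either kind alone. Within the Ano1 and Hmcn2 kind the differences were -0.71, -0.07 and -0.69. Within the Pln and Sorbs2 kind they were -0.40 for Ddah2 and -0.38 for Gucy1a2, and Nos1ap did not pass the filter. All 3 were also higher in the Ano1 and Hmcn2 kind than in the Pln and Sorbs2 kind, where the call of Gucy1a2 was lost with DESeq2 (adjusted p = 0.257) and without PLV library 2 (0.145) or the mixed library (0.156).

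The genes whose levels ran most like those of each member across the 18 class sums are given as a description. For Nos3 they were Pkn3 (r = 0.966), Tal1 (0.962) and Btnl9 (0.962). Npr1 was closest to Ly6e (0.972), Mapk12 (0.969) and Dock4 (0.955). Pde5a was closest to Gucy1a2 (0.969), Kcne4 (0.964) and Carmn (0.959), and Pde3a to Dmpk (0.959), Akap17b (0.948) and Phtf2 (0.947). Gucy1a1 came next to Gucy1b1, Filip1l (0.983) and Amigo2 (0.97). Pde1a (Heyl, 0.911), Prkg1 (Lclat1, 0.913) and Npr3 (Lzts2, 0.845) had no gene as close.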

How the data were processed

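Single-cell RNA of 2 PLV libraries and 1 mixed library was analysed; the hashtag table was not used. The deposited matrices hold raw UMI counts for each gene in each barcode, made with Cell Ranger 6.1.2 (PLV) and 4 (mixed) per the file headers, on build GRCm38 per the submitters' processing notes, which also name Seurat. Alignment settings are not stated in any source used here. No other library's columns were present.

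Barcodes were kept with at least 500 UMIs and 300 genes, at most 15% mitochondrial and 20% haemoglobin UMIs. Scrublet marked 10, 3 and 3 doublets (0.521%, 0.578% and 0.301%), which were left out, and few may have been found. Each library was clustered alone (scanpy 1.11.5, 2000 variable genes, 50 components, 15 neighbours, leidenalg 0.10.2 at resolution 1.0) without members, other pathway genes, sex-linked genes, tdTomato or haemoglobin. A cluster was named where 3 markers of a class were 2-fold above other cells (20 CPM added), leading genes did not favour another class and depth was not low for the library. Unnamed clusters (103, 107 and 38 cells) were left out.

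UMIs were summed per library and class (at least 10 cells), giving totals of 9577642, 3390010 and 7770796 UMIs per library before classes were split. Sums of 6 classes were tested in 1 fit with library as a block (edgeR 4.0.16, quasi-likelihood, TMM, filterByExpr, Benjamini-Hochberg over all genes, threshold 0.05; R 4.3.3). Library pairs the sums because classes of a library come from the same mice. The comparisons share class sums and are set side by side, not correlated. Alternatives were DESeq2 1.42.0, no low-count filter, other cell filters and resolutions, no block, each library left out, single muscle kinds, endothelial cluster subsets and cells without other cells' markers, the last chosen after seeing the data. On simulated counts with 200 genes changed 4-fold, 62.5% (PLV against mixed, 10738 genes) to 93.5% (mural against endothelial, 9861 genes) were recovered. Intervals are 95% exact Poisson or Clopper-Pearson (scipy 1.17.1). Limits that a count of 0 allows are instead 3 UMIs over the sum.

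Named genes are all 10 members and up to 3 called genes per direction of a fixed list of 42 symbols of other pathway genes, of which 41 were matched; the remaining one, Irag1, is a later symbol of Mrvi1, which is in the list. Members and lists were chosen with earlier results of these data known, so no pattern here is independent support for them. Genes named outside the rule (Nos2, Nppa, Nppb, Nppc and Rgs2) were chosen after their values were seen. Likeness is the Pearson correlation of log2(CPM + 1) over 18 sums, among genes with at least 20 CPM in 2 sums, without a p-value. Nothing in the labels says how the mice of a pool were matched. In fits with library as a block, p-values measure how far differences between sums vary from pool to pool. These fits had 10 residual degrees of freedom for classes and 2 for kinds. The fit of PLV against mixed had no block and 1 residual degree of freedom, from the spread between the PLV pools.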

Additional observations from a re-analysis of the deposited data

Results flagged for a closer look

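Pde3a differed between blood endothelial-like and fibroblast-like cells in opposite directions. It was lower in blood endothelial-like than in fibroblast-like cells by 43.3 CPM in PLV library 1 (a difference of -43.3) and by 42.8 CPM in PLV library 2 (-42.8), and higher by 31.0 CPM in the mixed library. The fibroblast-like level was 85.5 and 66.5 CPM in the PLV libraries and 8.99 CPM in the mixed library, while the blood endothelial-like level was 42.1, 23.7 and 40.0 CPM. Whether the libraries differ was not tested, since there is 1 mixed library. Groups of this size could not be searched for outlying samples.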

How the results depend on the processing

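Of 623 log2 differences of members recomputed under alternatives, 562 kept their direction and side of the threshold, 28 lost a call and 14 gained one in the same direction, and 19 changed sign, of which 4 also lost a call, 2 gained one and 1 was called in both directions. The count for muscle-like against pericyte-like was 2, and 3 when genes of low count were kept in, and 1 with DESeq2, at least 1000 UMIs, at most 10% mitochondrial UMIs, resolution 0.5 or no library block (1 to 2 with a library left out), 0 in mural cells without endothelial marker UMIs, and 4 with either the Ano1 and Hmcn2 or the Pln and Sorbs2 kind alone. For blood against lymphatic endothelial-like cells it was 5, and 7 when genes of low count were kept in, and 1 without pericyte markers or without pericyte and muscle markers. For mural against endothelial cells it was 8, and 9 when low counts were kept. It was 5 between the kinds, and 3 with DESeq2 (4 to 7 with a library left out), and for PLV against the mixed library 1, and 0 with DESeq2 (1 of 7 at an unadjusted p under 0.05) or with either kind alone. Without the replicate block, which pairs sums by library, 1492 in place of 2261 of all genes were called between the kinds, other pathway genes called as higher there went from 4 to 1, and the call of Pde5a ended (adjusted p = 0.14). Signs turned for muscle-like against pericyte-like in Nos3 (-0.85 to 3.80 with a library left out, 3.80 without the mixed library, where pericyte-like cells are at 0, 3.05 without endothelial markers), Gucy1a1 (0.037 without endothelial markers, 0.18 with the Pln and Sorbs2 kind), Pde5a (-0.17 with the Ano1 and Hmcn2 kind) and Npr3 (-6.95 with the Pln and Sorbs2 kind, where it is at 0). For blood against lymphatic endothelial-like cells they turned in Gucy1a1 (-1.80), Gucy1b1 (-1.41), Pde5a (-1.12) and Pde3a (-1.01) without pericyte and muscle markers, and in Gucy1a1 (-0.78), Gucy1b1 (-1.74) and Pde5a (-0.74) without pericyte markers. Npr3 against fibroblast-like cells was -0.078 to 0.32 with a library left out, lowest without PLV library 1. For PLV against mixed, the Ano1 and Hmcn2 kind alone gave Gucy1b1 -0.30, Prkg1 -0.0023, Pde5a -0.19, Pde1a -0.15 and Npr3 0.044. For changes other than those set by which cells or libraries entered a sum, the cause was not tested. Depth limits Nos1, Nos3 in pericyte-like cells and Npr1 in mural cells, which rest on few UMIs, and 93 shares of cells with a UMI moved when cells were thinned while 27 did not.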

Other observations

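Free RNA in the mixed library, read in droplets with fewer than 50 UMIs (1000645 UMIs in all), held Gucy1a1 at 105 CPM, Pde3a at 58.0, Pde5a at 36.0, Prkg1 at 33.98, Gucy1b1 at 33.0, Npr1 at 20.0, Nos3 at 19.0, Pde1a at 17.0 and Npr3 at 8.99. Within the same library, Schwann-like cells held 0 UMIs of Gucy1a1 and Gucy1b1, and muscle-like cells held Nos3 at 3.65 and Npr1 at 0.811 CPM.

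Several members stood higher in both PLV libraries than in the mixed library outside muscle, with separate counting intervals. Npr1 in fibroblast-like cells was 99.0 and 84.2 against 30.8 CPM, and in lymphatic endothelial-like cells 175 and 183 against 119 CPM. Npr3 in blood endothelial-like cells was 33.1 and 33.2 against 6.35 CPM. With 1 mixed library these differences have no replicate check, and vessel, digestion, mice and run cannot be told apart.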
